A study of Homo sapiens with 12 samples.

Results

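The 10 genes described here, NOX5, NQO1, HMOX1, GCLC, GCLM, TXNRD1, SRXN1, AKR1C1, AKR1C3 and AKR1B10, are targets of the transcription factor NRF2 together with 1 NADPH oxidase. All probes annotated to their symbols or older names on the Illumina HT-12 v4 array were taken, which gave 14 of the 47322 probes in the table, and none of them was found through an older name alone. NOX5 was chosen by its measured change with siRNA-1 against control, and which measured values were in view when the other 9 genes were added is not recorded. Values of these genes with siRNA-1 are therefore given as a description without a test. Tests are given for the compounds, with the limit that those values may have been in view too. Probes entered the tests where the 2 arrays of some group both had a detection p under 0.05, which held for 10 of the 14 probes, 8 of the 10 genes and 17910 probes in all. NOX5 passed only through the siRNA-1 arrays, and AKR1C1 and AKR1B10 did not pass.

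MDA-MB231 is an established line of triple-negative breast cancer, and DOT1L is the enzyme that methylates a lysine in the core of histone H3. Cells were grown for 14 days with compound 1 (EPZ004777) at 1 or 5 µM, for 14 days with compound 2 (Compound 55 in the labels) at 2 or 10 µM, or for 7 days after 10 nM siRNA-1 against DOT1L, and the control was 0.1% DMSO for 14 days. Both compounds inhibit DOT1L. Each of the 6 groups had 2 arrays, which the labels call biological replicates, and no other origin of the replicates is given, so each p measures the spread between these arrays. No array of cells with a non-targeting siRNA was analysed here, so siRNA, transfection and the shorter time cannot be told apart.

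Under resting conditions KEAP1 holds NRF2 (gene NFE2L2) for degradation, and electrophiles or oxidants release it. NRF2 then binds antioxidant response elements together with small MAF proteins and switches on genes for quinone reduction, glutathione and thioredoxin supply, heme breakdown and carbonyl reduction. The AKR1C enzymes are aldo-keto reductases that reduce steroids, prostaglandins and reactive carbonyls, and they stand among the most NRF2-dependent human genes. NOX5, in contrast, makes superoxide from NADPH and is a calcium-regulated member of the NADPH oxidase family.

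Promoters were taken from RefSeq (GRCh38.p14) as 250 bases before to 50 bases after each gene's start. The table matched 8 of the 10 genes with 10 windows. They were searched on both strands for the antioxidant response element core TGACNNNGC, whose opening letters TGAC also open the AP-1 core TGACTCA. The core was present in 3 of the 10 windows, against 13.3% of 35116 promoters of the same length. Shown here are the windows of AKR1C3 and NQO1, whose signals with the compounds are described next, of GCLM and TXNRD1, which hold a match, and of NOX5, each 5′ to 3′ on the strand of the gene with matches in capitals.
AKR1C3 promoter, chr10:5048531-5048830 (+): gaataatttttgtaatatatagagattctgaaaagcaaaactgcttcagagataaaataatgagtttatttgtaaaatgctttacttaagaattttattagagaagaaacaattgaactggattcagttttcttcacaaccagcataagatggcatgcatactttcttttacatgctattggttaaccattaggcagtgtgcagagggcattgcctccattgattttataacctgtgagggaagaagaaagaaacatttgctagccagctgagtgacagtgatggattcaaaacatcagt
NQO1 promoter, chr16:69726511-69726810 (-): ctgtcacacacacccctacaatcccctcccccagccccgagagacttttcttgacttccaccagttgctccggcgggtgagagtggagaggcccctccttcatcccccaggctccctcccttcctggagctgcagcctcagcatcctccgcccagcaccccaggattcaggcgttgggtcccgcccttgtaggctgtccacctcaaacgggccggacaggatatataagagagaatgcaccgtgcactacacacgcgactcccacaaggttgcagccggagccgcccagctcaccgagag
GCLM promoter, chr1:93909381-93909680 (-): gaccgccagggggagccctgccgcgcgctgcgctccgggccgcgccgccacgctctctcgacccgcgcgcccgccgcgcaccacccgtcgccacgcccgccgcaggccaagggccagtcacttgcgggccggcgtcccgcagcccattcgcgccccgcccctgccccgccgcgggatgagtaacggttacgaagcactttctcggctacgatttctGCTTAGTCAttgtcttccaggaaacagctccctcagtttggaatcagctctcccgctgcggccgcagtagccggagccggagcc
TXNRD1 promoter, chr12:104215529-104215828 (+): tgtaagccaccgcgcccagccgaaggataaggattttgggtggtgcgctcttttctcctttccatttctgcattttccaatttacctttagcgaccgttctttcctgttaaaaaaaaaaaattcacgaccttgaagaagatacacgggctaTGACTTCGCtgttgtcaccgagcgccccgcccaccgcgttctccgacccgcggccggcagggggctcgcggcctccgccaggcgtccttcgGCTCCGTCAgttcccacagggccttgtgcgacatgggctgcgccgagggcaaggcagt
NOX5 promoter, chr15:69014445-69014744 (+): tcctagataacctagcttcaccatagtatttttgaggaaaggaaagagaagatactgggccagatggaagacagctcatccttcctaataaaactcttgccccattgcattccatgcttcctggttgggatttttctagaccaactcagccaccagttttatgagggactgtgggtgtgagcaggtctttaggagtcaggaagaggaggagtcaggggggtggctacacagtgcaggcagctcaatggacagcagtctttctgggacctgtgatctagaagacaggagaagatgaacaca
The GCLM window held GCTTAGTCA at position -34 from the start site, which is the core read on the opposite strand. The TXNRD1 window shown held TGACTTCGC at position -99 and, on the opposite strand, GCTCCGTCA at position -8, and a second TXNRD1 window held GCTTTGTCA at position -102. No match was in the windows of NOX5, NQO1, GCLC, SRXN1, AKR1C1 or AKR1C3 (both windows). A match describes letters only, and elements farther from the start lie outside these windows.

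AKR1C3, which reduces ketosteroids and prostaglandins, rose with both doses of both compounds, to 2.47- to 3.54-fold of control. Its single probe had normalized signals of 1728 and 1972 with compound 1 at 1 µM, 2388 and 2188 with compound 1 at 5 µM, 1541 and 1653 with compound 2 at 2 µM, 1939 and 2030.0 with compound 2 at 10 µM and 2155 and 1978 with siRNA-1, against 714 and 583 in control. Normalized signals are background-corrected intensities scaled to 1 common median, and they contain a constant offset of 16. All 10 treated arrays lay above both control arrays, as did those of 4.83% of all tested probes. The log2 fold change against control was 1.52 with compound 1 at 1 µM (adjusted p = 3.77e-04), 1.82 with compound 1 at 5 µM (adjusted p = 8.08e-05), 1.31 with compound 2 at 2 µM (adjusted p = 0.00156) and 1.62 with compound 2 at 10 µM (adjusted p = 2.25e-04), each with a standard error of 0.14. With siRNA-1 it was 1.68 (SE 0.14), given without a test. AKR1C3 was called higher in all 4 compound comparisons, as were 0.916% of all tested probes, and ranked 18, 11, 24 and 18 of 17910 by rise in that order of doses. Whether these values were in view when the gene was listed is not recorded, so they may restate the choice of AKR1C3. Its call held in each of the 20 alternative settings, with an adjusted p of at most 0.0362.

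The higher dose gave the higher AKR1C3 level with each compound. The difference between doses was 0.31 on the log2 scale for compound 1 (95% interval 0.01 to 0.61, adjusted p = 0.701) and 0.31 for compound 2 (95% interval 0.01 to 0.61, adjusted p = 1.00), so neither passed the threshold. By mean, AKR1C3 levels ran in the order compound 1 at 5 µM, siRNA-1, compound 2 at 10 µM, compound 1 at 1 µM, compound 2 at 2 µM and control. Arrays of siRNA-1 overlapped those of compound 2 at 10 µM, which overlapped those of compound 1 at 1 µM. The doses of the 2 compounds differ, and their levels are given side by side with no test between compounds.

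**Figure D1:**
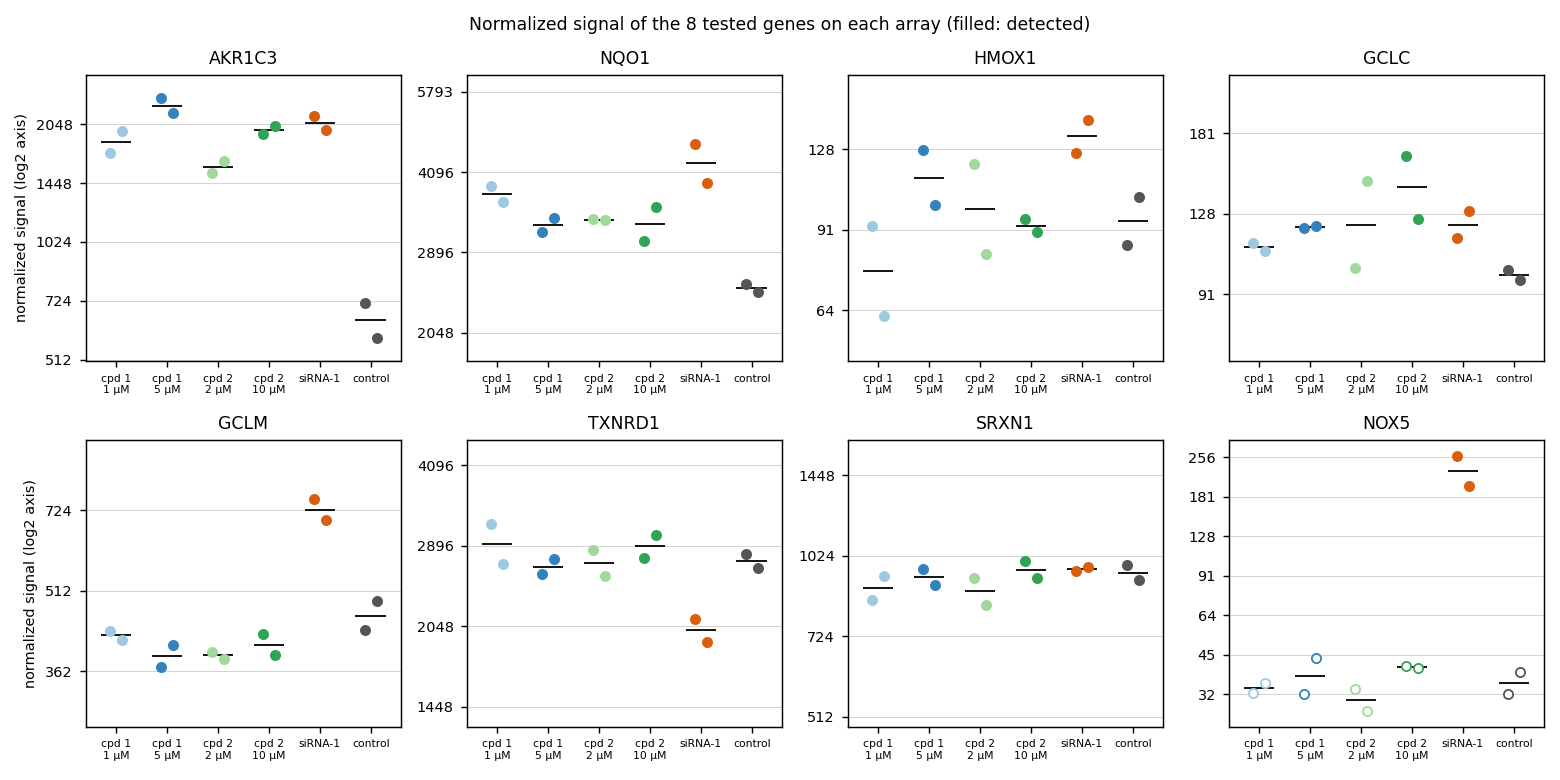
Normalized signal on a log2 axis for the 8 tested genes, with 1 point per array (filled where detected), a line at the mean log2 value of each group, and groups along the horizontal axis. AKR1C3, NQO1 and, by a small margin, GCLC lie above control on all 10 treated arrays, while the NOX5 points are filled only for siRNA-1, at 259 and 199.

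AKR1C3 lies between AKR1C2 and AKR1C4 in a row of closely related genes on chromosome 10, and both neighbours rose with it. AKR1C2, which inactivates dihydrotestosterone, had normalized signals of 71.8 and 112 with compound 1 at 1 µM, 117 and 116 with compound 1 at 5 µM, 89.2 and 76.4 with compound 2 at 2 µM, 115 and 97.8 with compound 2 at 10 µM and 101 and 93.9 with siRNA-1, against 41.4 and 30 in control. It was not detected on either control array, so its level was at least 1.73-fold higher with compound 1 at 1 µM (adjusted p = 0.00688), at least 2.24-fold at 5 µM (adjusted p = 0.00158), at least 1.59-fold with compound 2 at 2 µM (adjusted p = 0.0138), at least 2.05-fold at 10 µM (adjusted p = 0.00244) and at least 1.88-fold with siRNA-1 (adjusted p = 8.47e-04). These bounds set the control at the dimmest detected signal of its arrays. Here and for the other genes given a bound, the adjusted p comes from the fit to the measured signals and does not test the bound. AKR1C2 passed the detection filter only through the treated groups, where it was higher, so its adjusted p is a description. SLC40A1, given below, was also detected on no control array. AKR1C4, known as a bile acid and steroid reductase of the liver, had normalized signals of 205 and 205 with compound 1 at 1 µM, 351 and 285 with compound 1 at 5 µM, 188 and 209 with compound 2 at 2 µM, 306 and 239 with compound 2 at 10 µM and 349 and 303 with siRNA-1, against 116 and 78.8 in control. Its log2 fold changes were 1.10, 1.72, 1.05 and 1.497 in the same order of compound doses (SE 0.19, adjusted p from 9.61e-04 to 0.0196) and 1.76 with siRNA-1 (adjusted p = 1.38e-04). All treated arrays of both genes stood above both control arrays, as did those of 4.83% of all tested probes.

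AKR1C1, the first gene of the row, gave normalized signals of 20.8 to 28.6 on the 12 arrays and was detected on none of them. The AKR1C transcripts are nearly alike in sequence, and how far their probes read the same transcript was not tested, so the separate values of AKR1C2, AKR1C3 and AKR1C4 are uncertain. AKR1C2 had 6 probes and AKR1C4 had 2, of which 1 each was tested. Calls at the lower doses depended on single arrays and on the processing. Without control replicate 2 the adjusted p was 0.0836 for AKR1C2 and 0.113 for AKR1C4 with compound 1 at 1 µM, and 0.149 and 0.169 with compound 2 at 2 µM. It was also above 0.05 without compound 1 at 1 µM replicate 2 (AKR1C2 0.0586, AKR1C4 0.0761) or replicate 1 (AKR1C4 0.0868), and without compound 2 at 2 µM replicate 1 (AKR1C2 0.0654, AKR1C4 0.0602) or replicate 2 (AKR1C2 0.0597, AKR1C4 0.123). With compound 2 at 2 µM it was 0.0596 for AKR1C2 with signals under 1 set to 1 and 0.0749 for AKR1C4 in a fit to the compared groups only.

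**Figure D2:**
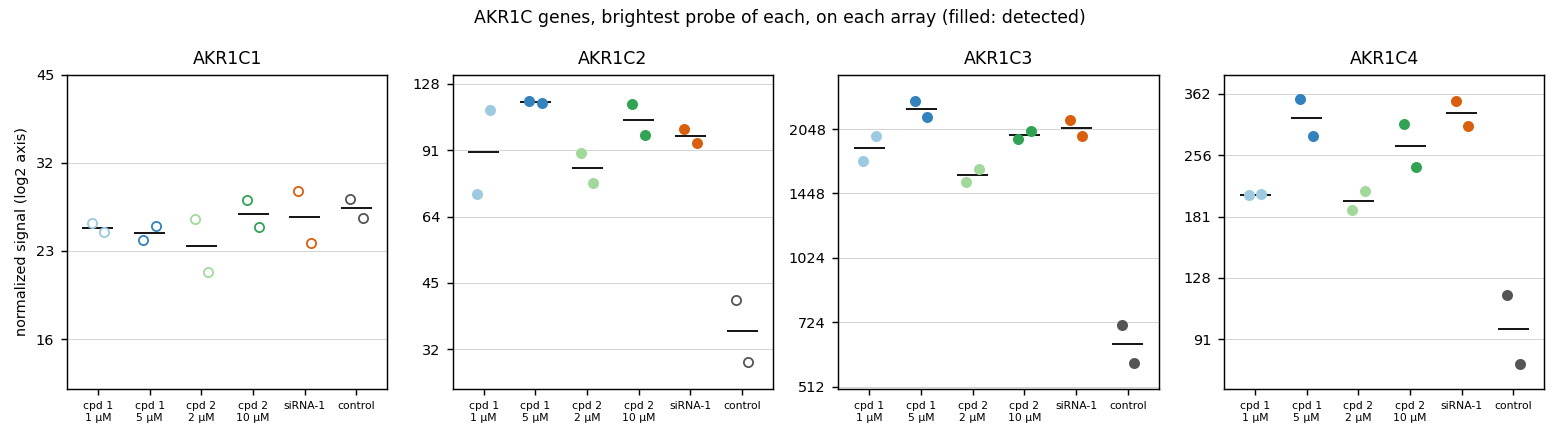
Normalized signal on a log2 axis for the brightest probe of AKR1C1, AKR1C2, AKR1C3 and AKR1C4, with 1 point per array (filled where detected), a line at the mean log2 value of each group, and groups along the horizontal axis. AKR1C2, AKR1C3 and AKR1C4 lie above control on all 10 treated arrays, and AKR1C1 is detected on none of the 12.

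AKR1B10, an aldo-keto reductase that reduces retinal and lipid aldehydes, was detected on none of the 12 arrays. Its normalized signals were 43.3 and 35.7 with siRNA-1 and 26.05 to 32.25 with the compounds, against 30.1 and 34.3 in control, and it was not tested.

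NQO1, the quinone reductase that is a common readout of NRF2, was bright on every array and above control on all 10 treated arrays, though by less than AKR1C3. Of all tested probes, 4.83% had all 10 treated arrays above both control arrays. For NQO1 the values by group follow. Its normalized signals were 3862 and 3607 with compound 1 at 1 µM, 3163 and 3359 with compound 1 at 5 µM, 3341 and 3336 with compound 2 at 2 µM, 3047 and 3518 with compound 2 at 10 µM and 4631 and 3907 with siRNA-1, against 2525 and 2440.3 in control. It rose with compound 1 at 1 µM (log2 fold change 0.59, SE 0.13, adjusted p = 0.0282). The differences with compound 1 at 5 µM (0.39, adjusted p = 0.135), compound 2 at 2 µM (0.43, adjusted p = 0.0859) and compound 2 at 10 µM (0.40, adjusted p = 0.112) did not pass, with 95% intervals that lay between 0.11 and 0.71. With siRNA-1 the log2 fold change was 0.78 (SE 0.13). The lower siRNA-1 array stood above the highest compound array by a small margin, at 3907 against 3862. The share of all tested probes with that separation was not counted. The second NQO1 probe was detected on no array. The call with compound 1 at 1 µM was lost without either of its arrays (adjusted p = 0.159 without replicate 1, 0.102 without replicate 2) or without control replicate 2 (adjusted p = 0.156).

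HMOX1, which opens the heme ring and is among the quickest NRF2 targets to respond, was called in no compound comparison. Its normalized signals were low, 91.8 and 62.4 with compound 1 at 1 µM, 127 and 101 with compound 1 at 5 µM, 120.3 and 81.7 with compound 2 at 2 µM, 94.6 and 89.4 with compound 2 at 10 µM and 126 and 145 with siRNA-1, against 84.8 and 104 in control. Treated and control arrays overlapped with every compound dose, and the log2 fold changes were -0.31, 0.27, 0.08 and -0.03 for compound 1 at 1 and 5 µM and compound 2 at 2 and 10 µM (SE 0.22, adjusted p from 0.415 to 0.956). With siRNA-1 the difference was 0.52 (SE 0.22), and both siRNA-1 arrays were above both control arrays, as were those of 22.3% of all tested probes.

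GCLM and GCLC encode the modifier and the catalytic subunit of glutamate-cysteine ligase, the first enzyme of glutathione synthesis. GCLM had normalized signals of 431 and 414 with compound 1 at 1 µM, 368 and 405 with compound 1 at 5 µM, 394 and 381 with compound 2 at 2 µM, 424 and 389 with compound 2 at 10 µM and 760.4 and 694 with siRNA-1, against 432 and 489 in control. The siRNA-1 arrays stood above all others, 1.58-fold over control (log2 fold change 0.66, SE 0.12) and 1.81-fold over the mean of the inhibitor groups (0.86, SE 0.10). Both siRNA-1 arrays were above both control arrays for 22.3% of all tested probes, and the share above all other arrays was not counted. The second GCLM probe, which had 115 and 105 with compound 1 at 1 µM, 119.5 and 139 with compound 1 at 5 µM, 134 and 113 with compound 2 at 2 µM, 128 and 149.6 with compound 2 at 10 µM and 178 and 205 with siRNA-1, against 115 and 133 in control, also had its highest signals with siRNA-1 (0.63 over control). With the compounds the brighter probe gave log2 fold changes of -0.12, -0.25, -0.25 and -0.18 (adjusted p from 0.255 to 0.588), and all 8 compound arrays lay below both control arrays, as did those of 14.7% of all tested probes. The margin was small, since the highest compound array had 431 and the lower control array 432. On the second probe the compound arrays overlapped control.

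GCLC was dimmer, with normalized signals of 113 and 109 with compound 1 at 1 µM, 120.4 and 121 with compound 1 at 5 µM, 101 and 147 with compound 2 at 2 µM, 164 and 125 with compound 2 at 10 µM and 115 and 129.5 with siRNA-1, against 101 and 96.1 in control. All 10 treated arrays were above both control arrays, as were those of 4.83% of all tested probes. The margin was small, since the lowest treated array had 101.2 and the higher control array 100.6. The log2 fold changes were 0.17, 0.30, 0.31 and 0.54 for compound 1 at 1 and 5 µM and compound 2 at 2 and 10 µM (SE 0.18, adjusted p from 0.117 to 0.598). With siRNA-1 it was 0.31 (SE 0.18), and a second GCLC probe was not detected.

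TXNRD1, the cytosolic thioredoxin reductase, was the 1 member with its lowest signals in siRNA-1. Its normalized signals were 3184 and 2677 with compound 1 at 1 µM, 2566 and 2733 with compound 1 at 5 µM, 2850.2 and 2542 with compound 2 at 2 µM, 2751 and 3036 with compound 2 at 10 µM and 2118 and 1911 with siRNA-1, against 2802 and 2628 in control. Both siRNA-1 arrays were below the other 10 arrays, with a log2 fold change of -0.43 against control (SE 0.13) and -0.47 against the mean of the inhibitor groups (SE 0.11). Both siRNA-1 arrays were below both control arrays for 31.4% of all tested probes, and the share below all 10 was not counted. A second TXNRD1 probe had 1109 and 1102 with compound 1 at 1 µM, 1106 and 1287 with compound 1 at 5 µM, 1229 and 1065 with compound 2 at 2 µM, 1383 and 1309 with compound 2 at 10 µM and 1063 and 916 with siRNA-1, against 1411 and 1179.7 in control, a log2 fold change of -0.39 with siRNA-1 against control. With the compounds the brighter probe gave -0.04 to 0.11 (adjusted p from 0.673 to 0.970), and on it every compound group overlapped control. On the second probe both arrays of compound 1 at 1 µM lay below both control arrays. Its higher siRNA-1 array (1063) was also level with an array of compound 2 at 2 µM (1065).

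SRXN1, sulfiredoxin, which repairs over-oxidized peroxiredoxins, had much the same signal everywhere. Its lowest array was at 829 (compound 2 at 2 µM), its highest at 1001 (compound 2 at 10 µM), and the control arrays had 984 and 923. The log2 fold changes lay between -0.12 and 0.02 with the compounds (adjusted p from 0.604 to 0.953), and each 95% interval stayed within -0.39 and 0.29. With siRNA-1 the value was 0.02 (SE 0.12).

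**Figure D3:**
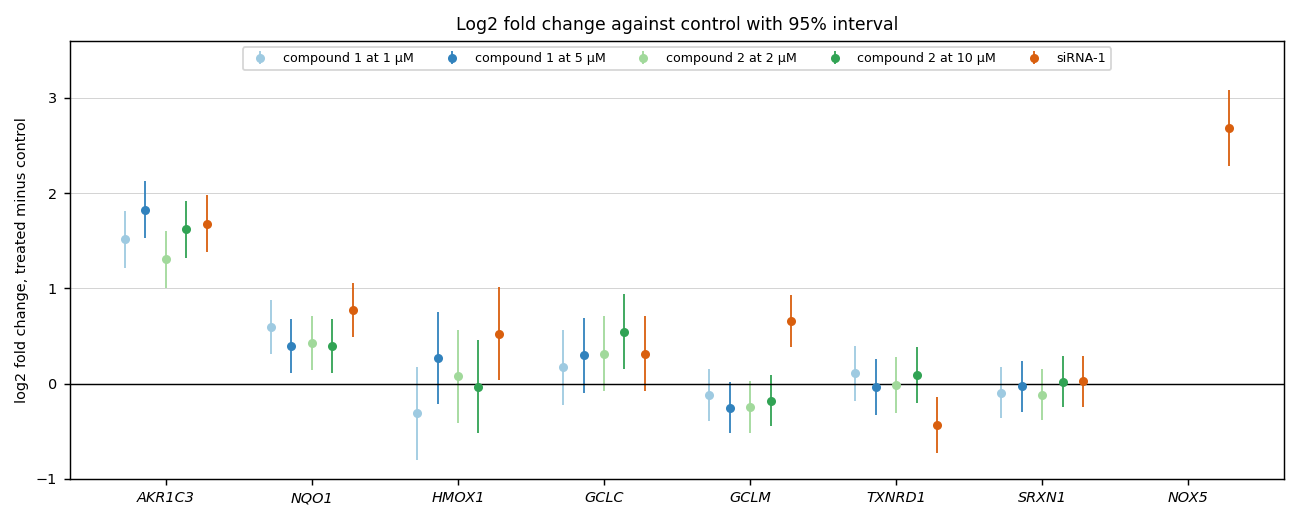
Log2 fold change against control with its 95% interval for each of the 8 tested genes, in the order compound 1 at 1 and 5 µM, compound 2 at 2 and 10 µM and siRNA-1 within each gene. The AKR1C3 values lie between 1.31 and 1.82 in all treatments, and NOX5 is drawn for siRNA-1 only, at 2.68, since it was below detection in the other groups.

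NOX5 stood apart from the NRF2 targets, since it was detected on the siRNA-1 arrays and on no other. Its normalized signals were 32.4 and 35.3 with compound 1 at 1 µM, 32.2 and 44.2 with compound 1 at 5 µM, 33.4 and 27.7 with compound 2 at 2 µM, 41.1 and 40.4 with compound 2 at 10 µM and 259 and 199 with siRNA-1, against 32.2 and 38.9 in control. The mean level with siRNA-1 was at least 4.38-fold higher than in control, with the control set at the dimmest detected signal of its arrays, and the measured log2 fold change was 2.68 (SE 0.18). This is the value for which NOX5 was listed. The size of the difference depended on how background was treated, as it was 1.91 with an offset of 50, 4.70 with signals under 1 set to 1 and 4.79 on the authors' processed values. With the compounds, as in control, NOX5 was below detection, so no fold or test is given.

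The genes whose pattern over the 12 arrays was most like that of NOX5 were found by Pearson correlation of normalized log2 values over all tested probes. They were SERPIND1 (r = 0.983), C6orf58 (r = 0.981), GPER1 (r = 0.978), ZNF69 (r = 0.9755) and KLHL4 (r = 0.974). These correlations rest on the siRNA-1 pair against the other 10 arrays. For GPER1, the membrane estrogen receptor, the mean normalized signal was 239.9 with siRNA-1 and 66.8 in control, and for SERPIND1, heparin cofactor II, it was 125 with siRNA-1 and 45.9 in control.

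Among the other NADPH oxidase genes and their subunits, 14 of 16 had a probe and 6 were tested. The catalytic genes NOX1, CYBB, NOX3, NOX4 and DUOX2 did not pass the detection filter, and DUOX1 passed near background. NOXA1, the activator subunit of NOX1, had normalized signals of 145 and 191 with compound 1 at 1 µM, 139 and 166 with compound 1 at 5 µM, 162 and 144 with compound 2 at 2 µM, 173 and 145 with compound 2 at 10 µM and 98.7 and 94.1 with siRNA-1, against 116 and 79.9 in control. It was called higher with compound 1 at 1 µM (log2 fold change 0.79, adjusted p = 0.0399), a call lost in 11 of 20 alternative settings, among them those without control replicate 2 (adjusted p = 0.272) and without either array of that dose (0.0894 and 0.210). It was lower with siRNA-1 than with the inhibitors (-0.71, adjusted p = 0.00787), but not without siRNA-1 replicate 1 (0.0649) or replicate 2 (0.0885). CYBA, RAC1, RAC2, NOXO1 and DUOX1 were called in no comparison with control. CYBA encodes the membrane partner of the NOX enzymes that need one, and its normalized signals were 1215 and 1235 with siRNA-1, 1374 to 1721 with the compounds and 1519 and 1189 in control.

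Counted over the 8 tested members, of which NOX5 was detected neither with a compound nor in control, 2 were called higher with compound 1 at 1 µM (2.9% of all tested probes were called higher), 1 with compound 1 at 5 µM (1.57%), 1 with compound 2 at 2 µM (2.22%) and 1 with compound 2 at 10 µM (2.24%), and none was called lower. AKR1C3 was the member called in each, joined by NQO1 at the first dose. The members' median log2 fold change was 0.02, 0.18, 0.03 and 0.15 in that order, beside -0.06, -0.06, -0.06 and -0.04 over all tested probes. Between the 2 doses of a compound limma called 0 of the 8 members and 0 of the 17910 probes (0%). At an unadjusted p under 0.05 there were 1256 probes and 2 members (AKR1C3 and HMOX1) for compound 1, and 562 probes and 2 members (AKR1C3, and NOX5, which was below detection at both doses) for compound 2, and leaving out any 1 array left the adjusted counts at 0.

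Pathway genes beyond the 10 members were read from 8 lists with 95 genes, of which 84 had a probe and 66 were tested. With compound 1 at 1 µM 8 were called higher and 1 lower (5.25% of all tested probes were called in either direction), at 5 µM 3 higher and 1 lower (2.17%), with compound 2 at 2 µM 5 higher and 1 lower (3.62%) and at 10 µM 5 higher and 0 lower (3.16%). With siRNA-1 4 were called higher and 7 lower against control (10.2%), and 10 higher and 13 lower against the mean of the inhibitor groups (19.9%). When 1 array at a time was left out, the counts against control ranged from 1 to 8 higher and 0 to 3 lower, 3 to 7 and 0 to 1, 0 to 7 and 0 to 4, 2 to 7 and 0 to 4, and 3 to 5 and 4 to 7, in that order. Against the inhibitors they were 1 higher and 5 lower without siRNA-1 replicate 1 and 2 higher and 3 lower without replicate 2, and 3 higher and 14 lower with all arrays centred on the median of all probes. The medians over these genes lay between -0.08 and 0.00 against control, and the median was 0.06 against the inhibitors.

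The detoxification list (9 genes tested) held the calls common to all treatments. AKR1C2, AKR1C4 and ALDH3A1 were called higher in all 5 comparisons with control, as were 0.637% of all tested probes, and no gene of this list was called lower. Of these, AKR1C2 had passed the detection filter only through the treated groups. ALDH3A1, an aldehyde dehydrogenase, had normalized signals of 149 and 165 with compound 1 at 1 µM, 203 and 216 with compound 1 at 5 µM, 134 and 113 with compound 2 at 2 µM, 142 and 167 with compound 2 at 10 µM and 237 and 227 with siRNA-1, against 80.3 and 68.8 in control. Its log2 fold changes were 1.08 with compound 1 at 1 µM (adjusted p = 0.00310), 1.49 at 5 µM (3.40e-04), 0.72 with compound 2 at 2 µM (0.0247), 1.05 at 10 µM (0.00311) and 1.64 with siRNA-1 (2.57e-05). The call with compound 2 at 2 µM was lost without control replicate 2 (0.184) or without either array of that dose (0.0901 and 0.0632) or in a fit to the compared groups only (0.131), and that at 10 µM without its replicate 2 (0.0556). CBR3, a carbonyl reductase, was higher with siRNA-1 than with the inhibitors (0.72, adjusted p = 5.23e-04). Against control its value with siRNA-1 was 0.50 (adjusted p = 0.0263), which was lost without control replicate 1 (0.124) or either siRNA-1 array (0.107 and 0.142), in a fit to the compared groups only (0.0781) and with no detection filter (0.0616).

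Of 18 genes tested in the glutathione list, 5 fell with siRNA-1, among them genes for cystine uptake, and 0 rose. Over all tested probes 5.27% were called lower. SLC7A11, the cystine carrier, had normalized signals of 47.5 and 54.9 with compound 1 at 1 µM, 53.3 and 78.7 with compound 1 at 5 µM, 42.9 and 43 with compound 2 at 2 µM, 45.1 and 63.5 with compound 2 at 10 µM and 38 and 37.8 with siRNA-1, against 83.4 and 113 in control. It was detected on neither siRNA-1 array and was at least 2.05-fold lower than control (adjusted p = 0.00176). SLC3A2, its partner chain, was at 937 and 881 with siRNA-1 and 1461 and 2276 in control (log2 fold change -1.01, adjusted p = 0.00339). CHAC1, which breaks down glutathione, was at 29.8 and 25.8 with siRNA-1 and 42.1 and 61.5 in control. It was detected on neither siRNA-1 array and on 1 control array. The measured signals gave an adjusted p of 0.00733, while the bound was only at least 1.08-fold lower. This call was lost without control replicate 2 or siRNA-1 replicate 2. The calls of SLC7A11 and SLC3A2 held in all 20 alternative settings. GSTA4 and MGST1 made up the rest, at -0.85 (adjusted p = 0.0222) and -0.44 (adjusted p = 0.0416), and MGST1 lost its call in 17 of 20 settings and GSTA4 without control replicate 2 (0.132) or siRNA-1 replicate 1 (0.130) or 2 (0.0713) or on the authors' values (0.0658).

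With the compounds the same list gave calls in both directions. ABCC3, which exports conjugates, had normalized signals of 2267 and 2170.2 with compound 1 at 1 µM, 1585 and 1826 with compound 1 at 5 µM, 2184 and 2145 with compound 2 at 2 µM, 1985 and 2049.8 with compound 2 at 10 µM and 1252 and 1115 with siRNA-1, against 1288 and 731 in control. It was called higher with compound 1 at 1 µM (log2 fold change 1.19, adjusted p = 0.0122) and compound 2 at 2 µM (1.16, adjusted p = 0.0183) and 10 µM (1.06, adjusted p = 0.0229). The control arrays lay far apart, and without control replicate 2 the values were 0.78, 0.75 and 0.65 (adjusted p = 0.0581, 0.0913 and 0.118). Leaving out an array of those doses also ended the calls (adjusted p from 0.0654 to 0.158), as did a fit to the compared groups only with compound 2 at 2 µM (0.0922) and 10 µM (0.0729) and setting signals under 1 to 1 at 10 µM (0.0584). GSTM3, a glutathione transferase, was called in the same 3 comparisons (1.13, 0.96 and 1.09), and without control replicate 2 its values were 0.74, 0.57 and 0.71 (adjusted p from 0.0733 to 0.184), and without an array of the dose itself the adjusted p was 0.0673 to 0.150. With compound 2 at 2 µM it was also 0.0516 without either array of compound 1 at 1 µM, 0.0608 on the authors' values, 0.136 in a fit to the compared groups only and 0.0688 with signals under 1 set to 1, and at 10 µM it was 0.0673 in the fit to the compared groups only. SLC7A11 was lower with compound 1 at 1 µM (-0.92, adjusted p = 0.0331) and compound 2 at 2 µM (-1.17, adjusted p = 0.0188), and these calls too were lost without control replicate 2 (0.236 and 0.175) or without an array of the dose (0.0654 to 0.180). On the authors' values they were lost too (0.119 and 0.0575), and that with compound 1 at 1 µM also with centring on all probes (0.0528) and with signals under 1 set to 1 (0.0786). At these doses SLC7A11 was near the dimmest detected signal of the arrays, so the sizes are uncertain. On replicate 1 of compound 2 at 2 µM it was below that signal (48.9). Both ABCC3 (-0.77, adjusted p = 0.00717) and GSTM3 (-0.67, adjusted p = 0.0134) were lower with siRNA-1 than with the inhibitors. These calls were lost without siRNA-1 replicate 2 and, for GSTM3, without replicate 1. In that comparison 4 genes of the list were called higher and 6 lower, beside 19.9% of all tested probes called in either direction.

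In the thioredoxin list 10 genes were tested. SESN2, a stress-induced sestrin, was at 43.0 and 44.8 with siRNA-1, where it was not detected, and at 93.7 and 134.8 in control, at least 2.38-fold lower (adjusted p = 0.00164). TXNIP, the inhibitor of thioredoxin, was at 4329 and 4039 with compound 1 at 1 µM and 2693 and 1424 in control (log2 fold change 1.09, adjusted p = 0.0237), and the change was 0.64 without control replicate 2 (adjusted p = 0.122), with an adjusted p of 0.139 and 0.101 without an array of that dose, 0.0619 in a fit to the compared groups only and 0.0577 with signals under 1 set to 1. With siRNA-1 TXNIP was lower than with the inhibitors (-1.15, adjusted p = 0.00123), a comparison in which 1 gene of this list was called higher and 2 lower. The remaining calls against control were MGST1 lower with compound 1 at 5 µM (-0.58, adjusted p = 0.0319, lost in 16 of 20 settings) and the iron exporter SLC40A1 higher with compound 1 at 1 µM (at least 1.14-fold, adjusted p = 0.0348, but 0.191 without replicate 2 of that dose, 0.0549 without control replicate 1, 0.202 without control replicate 2, 0.0520 without either siRNA-1 array, 0.0814 in a fit to the compared groups only and 0.0794 with an offset of 50). No gene for NADPH supply (6 tested) or for superoxide and peroxide removal (3 tested) was called against control.

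Of 7 tested regulators of the pathway, 1 was called with siRNA-1 (beside 10.2% of all tested probes) and 0 with a compound against control. Against the mean of the inhibitor groups 3 were called lower with siRNA-1, beside 19.9% of all tested probes called in either direction. These were NFE2L1, SQSTM1 and MAFF, and MAFF lost its call in 15 of 20 alternative settings and SQSTM1 in 3. NFE2L2, which encodes NRF2, had normalized signals of 594 and 484 with compound 1 at 1 µM, 618 and 547 with compound 1 at 5 µM, 476 and 635 with compound 2 at 2 µM, 585 and 563 with compound 2 at 10 µM and 538 and 542 with siRNA-1, against 523 and 606 in control, and its log2 fold changes lay between -0.07 and 0.05 (adjusted p from 0.831 to 0.947). KEAP1 gave -0.38, -0.24, -0.27 and -0.34 with the compounds (adjusted p from 0.171 to 0.419) and -0.15 with siRNA-1 (adjusted p = 0.618). The related factor NFE2L1, which controls proteasome genes, was the gene called against control. It was at 1071 and 992 with siRNA-1 and 1788 and 1736 in control (-0.77, adjusted p = 0.00175), and the call held in all 20 alternative settings. The arrays measure transcripts, and NRF2 activity was not measured.

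**Figure D4:**
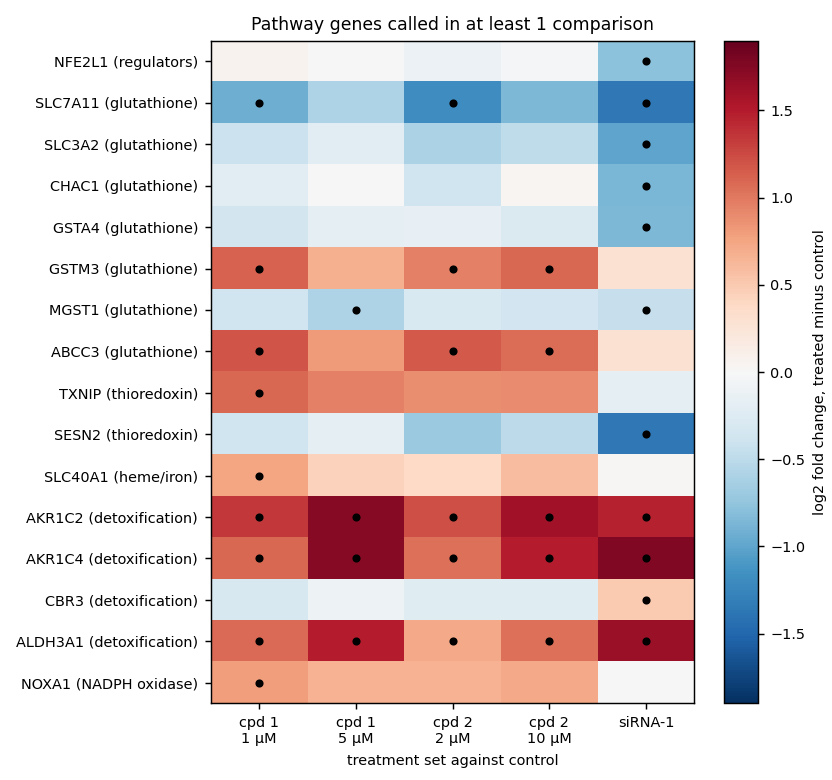
Log2 fold change against control (colour, red above 0 and blue below) of the 16 pathway genes called in at least 1 comparison with control, with treatments along the horizontal axis, each gene's list in brackets and a dot where the adjusted p was below 0.05. AKR1C2, AKR1C4 and ALDH3A1 carry a dot in all 5 columns, and SLC7A11, SLC3A2, CHAC1, GSTA4 and SESN2 are lowest with siRNA-1.

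The labels were checked on markers. For this mesenchymal line VIM, CD44, AXL and SPARC were expected present, and ESR1, PGR, CDH1 and ERBB2 low or absent. VIM, CD44 and AXL were detected on all 12 arrays, and ESR1, PGR, CDH1 and the leukocyte gene PTPRC did not pass the filter. SPARC and ERBB2 went against the expectation, as SPARC did not pass the filter and ERBB2 was detected. AXL was at 5059 and 5554 with siRNA-1 and 9285 and 8169 in control (-0.72, adjusted p = 0.00626), and AXL (-0.89, adjusted p = 2.23e-04) and VIM (-0.35, adjusted p = 0.0396) were lower with siRNA-1 than with the inhibitors. Of the markers of other cell types, PECAM1 (endothelium) was at 199 and 170.3 with siRNA-1 and 65.8 and 39.7 in control (log2 fold change 1.85, adjusted p = 3.14e-04) and was also called higher with compound 1 at 5 µM, compound 2 at 2 µM and compound 2 at 10 µM (1.08 to 1.21). With compound 1 at 1 µM it was at 89.0 and 91.4 (0.82, adjusted p = 0.0603). ALB (liver) was at 68.0 and 79.7 with siRNA-1 and 116 and 124 in control (-0.70, adjusted p = 0.0180). Their part in the results above was not tested. The DOT1L probe was near background, with 46.4 and 38.3 with siRNA-1 and 44.1 and 40.9 in control and detected on 4 of 12 arrays, so these arrays do not check the silencing. Between 34.0% and 36.7% of probes were detected per array, and the arrays' number and the dim signals of HMOX1, GCLC and NOX5 limit the precision.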

How the data were processed

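RNA from MDA-MB231 cells was hybridized to Illumina HT-12 v4 arrays and read with BeadStudio (version not given in the sources used here). The intensity values deposited by the authors are background-subtracted signals without normalization between arrays, in a table of 47324 lines of which 2 damaged ones were left out. The deposited detection p-values stood in another order than the signals (rank correlation between -0.00415 and 0.00291) and were assigned by rank within each array. The authors' processed log2 values, with signals under 1 set to 1 and each array's median subtracted, were used as an alternative, and the columns of the 2 arrays of compound 2 at 10 µM were exchanged between the tables.

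Signals were corrected with normexp (offset 16), put on the log2 scale and scaled so that 11807 probes with a detection p under 0.01 on every array had 1 common median. The fit was made with limma 3.58.1 in R 4.3.3 over all 12 arrays, with 1 mean per group (6 residual and 5.59 prior degrees of freedom) and Benjamini-Hochberg adjustment over 17910 probes per comparison, and a call is an adjusted p below 0.05. It was tested on simulated data. Probes were named through platform annotation updated by Entrez ID (30113 with 1 symbol, 8 with several, 17201 with none). A gene's value is its probe with the highest mean log2 value. The members and lists were chosen with earlier results of these data known. All 10 members are named with every probe, and of the lists the genes called against control, with regulators and oxidase subunits. Alternatives were the background treatment, offset, centring, quantile normalization, detection filter, the authors' values, a fit to the compared groups, a replicate block and leaving out each array. Figures were drawn with matplotlib 3.10.9.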

Additional observations from a re-analysis of the deposited data

How the results depend on the processing

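AKR1C3 was called with both doses of both compounds under all 20 alternatives. Of 1280 alternative values of the 8 member genes, 1261 kept their direction and side of the threshold or moved by less than the replicate spread, 12 descriptive values moved by more, 5 were no longer called and 2 became called. No called value changed sign, and 44 uncalled ones did, the largest of them reported as 0.23. With compound 1 at 1 µM 2 members were called, against 1 on the authors' values (NQO1 0.67, adjusted p = 0.0506) and 1 in a fit to the compared groups only (adjusted p = 0.0717), and 1 to 2 when 1 array was left out. With compound 2 at 2 µM 1 member was called, against 2 with centring on all probes (NQO1 0.55, adjusted p = 0.0472) and 2 with quantile normalization (NQO1 0.50, adjusted p = 0.0498). Leaving out 1 array gave 1 member for compound 1 at 5 µM and for each dose of compound 2.

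The count of called probes depended more on the settings, and the cause was not tested. For compound 1 at 1 µM it was 941, against 493 on the authors' values, 273 in a fit to the compared groups only and 499 with signals under 1 set to 1. For compound 1 at 5 µM it was 388, against 216, 63 and 251 in that order and 626 with centring on all probes. For compound 2 at 2 µM it was 649, against 221, 56 and 273. For compound 2 at 10 µM it was 566, against 372, 154 and 317, and 912 with an offset of 50. Without 1 array the counts ranged from 86 to 1552, 93 to 881, 59 to 1494 and 70 to 1373 in that order of doses, from 782 to 1804 for siRNA-1 (1831 with all arrays) and from 1351 to 3801 for siRNA-1 against the inhibitors (3572 with all arrays). In each compound comparison the count was highest without control replicate 1 and was 86, 93, 60 and 85 without control replicate 2.

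Centring on the median of all probes moved the median log2 fold change by 0.12, 0.11, 0.12 and 0.05 for the doses in the same order and by 0.04 for siRNA-1. With that centring, calls for the doses in that order were 946, 571, 813 and 538 higher beside 133, 55, 65 and 85 lower, against 520, 282, 397 and 402 higher beside 421, 106, 252 and 164 lower in the reported fit. On the authors' values, which are also centred on all probes, they were 441, 176, 195 and 348 higher beside 52, 40, 26 and 24 lower. For siRNA-1 against control they were 932 higher beside 684 lower and 826 beside 509 on those scales, against 888 beside 943 as reported. For siRNA-1 against the inhibitors, centring on all probes gave 1167 higher beside 2152 lower, against 1740 beside 1832. The direction of AKR1C3, NQO1 and GCLM with siRNA-1 was the same under each scaling.

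Deviations of same-numbered arrays correlated between -0.482 and 0.34 over 15 pairs of groups, over 0.1 in 4 of them. Equal replicate numbers thus did not mark pairs in the same way across all groups. Pairs or batches under other numbers were not tested, and the reported fit has no term for them. With the number as a replicate block 764, 316, 451 and 481 probes were called for the doses and 1642 for siRNA-1, and the counts of members called with the compounds were 2, 1, 1 and 1, as without it.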
